A study of Mus musculus with 224 samples.

Results

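The bed nucleus of the stria terminalis (BNST) of mice that had both inhaled and drunk ethanol was compared with the BNST of ethanol-naive mice, over all probesets of an Affymetrix mouse expression array. The members were the 22 arrays whose labels name this region and either group, out of 224 arrays in the series, with 12 from CIE Drinking mice and 10 from Air NonDrinking mice, 1 mouse per array. All were male C57BL/6J mice, bought at 10 weeks of age and given 2 weeks to acclimate. CIE Drinking mice first drank ethanol by choice for 6 weeks. They then went through 4 cycles of chronic intermittent ethanol vapor (CIE), breathing vapor at 10 to 13 mg/l air for 16 h a day on 4 days, then 72 h without ethanol and 5 days on which 15% (v/v) ethanol could be drunk for 2 h. An injection ahead of the vapor held ethanol at 1.6 g/kg together with pyrazole at 1 mmol/kg, an inhibitor of alcohol dehydrogenase that holds blood ethanol steady. Air NonDrinking mice breathed air, drank only water and received saline with 1 mmol/kg pyrazole, so that both groups carried the pyrazole. Mice were killed in the last cycle on day 5 of drinking, before ethanol was offered that day. The comparison asks which transcripts differ once vapor and drinking are combined. Within it, the parts of the vapor, the drinking and the time since the last ethanol cannot be told apart.

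The BNST is a small group of forebrain nuclei in the extended amygdala, rich in GABA neurons and neuropeptides, that receives stress and reward signals and is known for its part in anxiety-like states and in ethanol withdrawal. On these arrays a gene is often read by several probesets, each a set of short probes matched to another stretch or form of its transcript, and the probesets of a gene can behave differently. Levels are given in log2 units, so that a difference of 1 is a doubling. The tissue was dissected whole, and fewer cells of a type cannot be told apart from less RNA per cell.

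The 17 measured markers of the BNST averaged 9.65 to 10.3 in CIE Drinking arrays and 9.73 to 10.5 in Air NonDrinking arrays. Among them Sst, somatostatin, was at 11.3 to 12.1 in CIE Drinking and 11.5 to 12.1 in Air NonDrinking arrays, and Gad1, an enzyme of GABA synthesis, at 13.0 to 13.3 in both. Slc17a7, the vesicular glutamate transporter of cortical neurons, lay near the bottom of the scale, at 4.25 to 4.82 in CIE Drinking and 4.26 to 4.86 in Air NonDrinking arrays. Levels of striatal markers varied widely between arrays. The 8 measured markers of striatal projection neurons averaged 8.39 to 10.7 in CIE Drinking arrays and 8.30 to 10.4 in Air NonDrinking arrays, highest in CIE Drinking mouse 14 and Air NonDrinking mouse 55. The first principal component, with 35.6% of the variance over the BNST arrays, had Drd1 and Crym at one end and the hypothalamic peptide genes Pmch and Hcrt at the other, and its scores overlapped between groups (mean difference -9.41 for CIE Drinking minus Air NonDrinking, two-sided permutation test, p = 0.262).

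Probesets were more often higher than lower in CIE Drinking mice. LIMMA called 543 of 44429 probesets at an FDR of 0.01 or less (1.22%), of which 484 were higher in CIE Drinking mice (1.09%) and 59 lower (0.133%). The raised probesets had a median log2 fold change of 0.43 and 165 of them exceeded 0.5. The lowered ones had a median of -0.21, and only 3 went beyond 0.5, all of them for 1 gene. An unadjusted p under 0.05 was reached by 6273 probesets (14.1%), and an adjusted p of 0.05 or less by 1305 (2.94%). The groups did not overlap in 137 of 44429 probesets (0.308%), among them 116 raised and 4 lowered probesets. The raised probesets carried 338 gene symbols, and the lowered ones 47. Probesets without a single symbol made up 123 of the raised and 8 of the lowered ones (1.25% and 0.0811% of 9859 such probesets). Without CIE Drinking mouse 14 and Air NonDrinking mouse 55, a choice made after seeing the data, 285 probesets were called, 279 of them among the 543. With only the 2 groups in the fit 901 were called, with array quality weights 1346 and without dim probesets 323, and leaving out 1 array in turn gave 342 (without Air NonDrinking mouse 51) to 674.

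**Figure D1:**
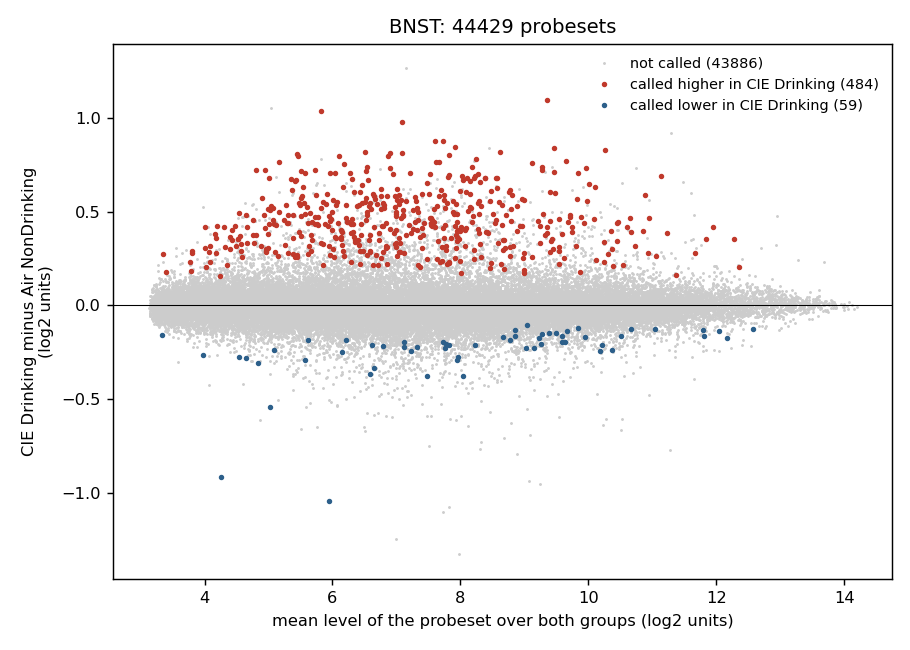
Each point is 1 of 44429 BNST probesets, with its mean level on the x axis and CIE Drinking minus Air NonDrinking on the y axis, both in log2 units. The 484 probesets called higher have a median difference of 0.43 and the 59 called lower one of -0.21, with the 3 probesets of 9630013A20Rik furthest down.

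The 15 genes with the largest rises are described by what they are known to do, not in order of size. Rph3a encodes rabphilin 3A, a protein of synaptic vesicles, and its probeset 1449961_at was at 9.32, 9.91 and 10.3 in CIE Drinking mice (lowest, median and highest array) against 8.36, 8.86 and 9.05 in Air NonDrinking mice. This was the largest rise, at 1.09 on the log2 scale or 2.13-fold (SE 0.20, adjusted p = 0.00054), and the groups did not overlap. Scn1a, a voltage-gated sodium channel, was at 7.53, 8.04 and 8.50 in CIE Drinking mice against 6.76, 7.07 and 7.75 in Air NonDrinking mice (0.88, SE 0.18, adjusted p = 0.00285), with some overlap. Ntrk3, the receptor for neurotrophin-3, rose by 0.81 in 1447723_at (SE 0.16, adjusted p = 0.00164). All other Ntrk3 probesets lay between -0.19 and -0.01 and were not called, with the brightest at -0.12. Syn2, synapsin II of the vesicle surface, was not among these 15 and rose in its brightest probeset, at 11.9, 12.0 and 12.1 in CIE Drinking mice against 11.5, 11.7 and 11.8 in Air NonDrinking mice, again without overlap (0.36, SE 0.06, adjusted p = 0.000424). A dimmer Syn2 probeset, 1449030_at, rose by 0.71. The remaining Syn2 probesets lay between 0.00 and 0.06 and were not called. The brightest of them, at a mean level of 11.7, stood at 0.05 (adjusted p = 0.753).

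Other genes of the 15 encode regulators of transcription and chromatin. Zbtb7a, a zinc finger repressor, was at 7.89, 8.19 and 8.47 in CIE Drinking mice against 7.08, 7.24 and 7.53 in Air NonDrinking mice, with no overlap (0.88, SE 0.13, adjusted p = 4.61e-05). Atrx, a chromatin remodeller encoded on the X chromosome, was at 7.58, 8.41 and 8.95 in CIE Drinking mice against 7.003, 7.50 and 7.90 in Air NonDrinking mice (0.84, SE 0.18, adjusted p = 0.00364). The Atrx call was lost without Air NonDrinking mouse 51 (adjusted p = 0.0116) and without mice 14 and 55 (adjusted p = 0.0148). Bptf, the large subunit of the NURF remodelling complex, rose by 0.80 (SE 0.15, adjusted p = 0.000696), and Chd6, a chromodomain helicase, by 0.79 (SE 0.12, adjusted p = 0.000113). In each of these 4 probesets all 12 CIE Drinking arrays lay above the Air NonDrinking mean. The zinc finger genes Zfp770 and Zfp664 rose by 0.80 each (adjusted p = 0.000753 and 0.000939).

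The remaining ones have varied roles. Prrc2c, an RNA-binding protein, was at 5.69, 6.44 and 6.67 in CIE Drinking mice against 4.95, 5.31 and 5.51 in Air NonDrinking mice (1.03, SE 0.16, adjusted p = 0.000117). Nedd4, a ubiquitin ligase, was at 9.44, 9.99 and 10.1 in CIE Drinking mice against 8.68, 9.05 and 9.28 in Air NonDrinking mice (0.84, SE 0.12, adjusted p = 6.09e-05). Kif1b, a kinesin that carries cargo along axons, was at 10.2, 10.8 and 10.9 in CIE Drinking mice against 9.60, 9.84 and 10.1 in Air NonDrinking mice (0.83, SE 0.15, adjusted p = 0.000449). The groups did not overlap in any of these 3 probesets. Apc, a scaffold of the complex that degrades beta-catenin, rose by 0.98 (SE 0.21, adjusted p = 0.00355), with the lowest CIE Drinking array at 6.73 just inside the Air NonDrinking range, and lost its call without mice 14 and 55 (adjusted p = 0.0139). Acbd3, a protein of the Golgi, rose by 0.82 and Smg6, an endonuclease of nonsense-mediated decay, by 0.80, both without overlap.

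**Figure D2:**
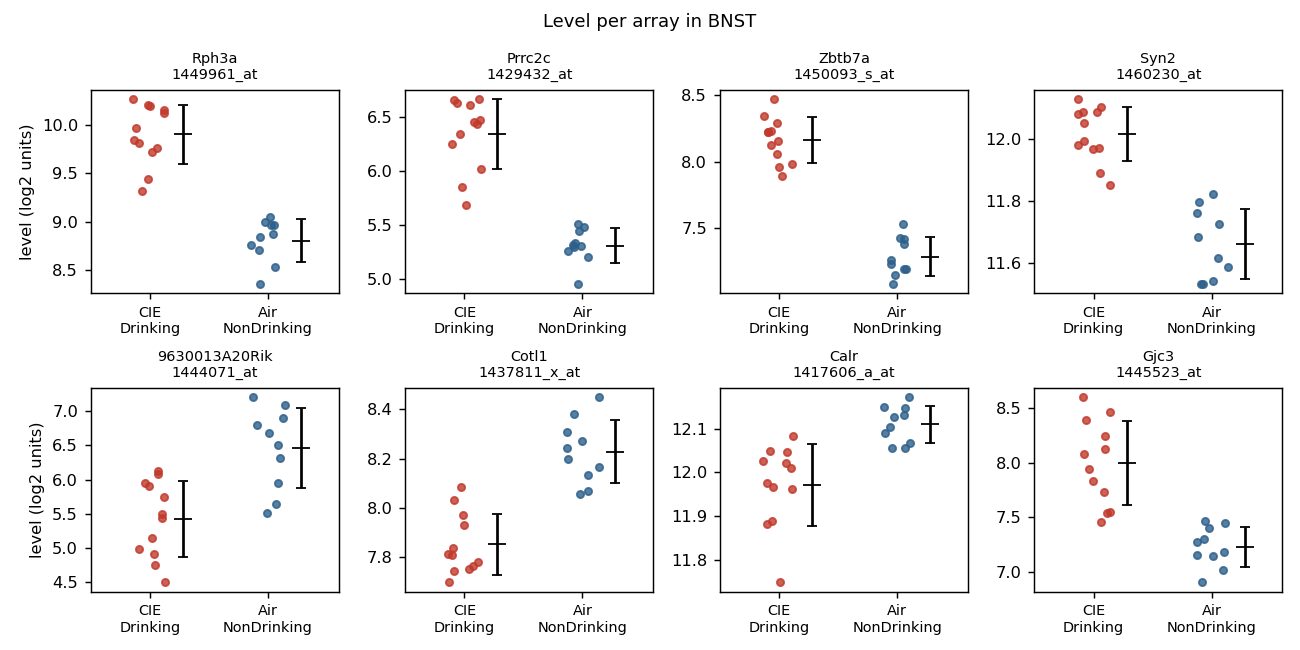
Level of 8 probesets in log2 units, each point 1 BNST array, CIE Drinking left of Air NonDrinking, with the mean and SD as bars. The groups do not overlap for Rph3a, Prrc2c, Zbtb7a and Syn2, and overlap by some arrays for 9630013A20Rik, Cotl1, Calr and Gjc3.

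The largest fall was in 9630013A20Rik, a long noncoding RNA that RefSeq also lists as lncOL1 and that is known from differentiating oligodendrocytes, the cells that form myelin. In 1444071_at it was at 4.50, 5.47 and 6.12 in CIE Drinking mice against 5.51, 6.60 and 7.20 in Air NonDrinking mice, a difference of -1.04 (SE 0.22, adjusted p = 0.00423). Its other probesets, 1439785_at and 1442517_a_at, stood at -0.92 (SE 0.16, adjusted p = 0.000519) and -0.54 (SE 0.12, adjusted p = 0.00451). In each of the 3 all 12 CIE Drinking arrays lay below the Air NonDrinking mean, and it was the one gene with several probesets of which all were called in 1 direction. The call of 1444071_at was lost without Air NonDrinking mouse 53 (adjusted p = 0.0121) and without mice 14 and 55 (adjusted p = 0.0103).

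No oligodendrocyte marker of the lists was called lower. Of 14 measured genes of oligodendrocytes and myelin 1 was called, Gjc3, which encodes connexin 29. It was at 7.46, 8.01 and 8.60 in CIE Drinking mice against 6.90, 7.23 and 7.46 in Air NonDrinking mice (0.76, SE 0.18, adjusted p = 0.0089, or 0.0226 without Air NonDrinking mouse 49), so it was higher, while the median of its list was -0.01. Mbp, myelin basic protein, stood at 0.02 (adjusted p = 0.785). Of 7 genes of oligodendrocyte precursors and newly formed oligodendrocytes 0 were called, and 3 had an unadjusted p under 0.05. Of all genes, by the brightest probeset, 0.332% were called and 10.8% had an unadjusted p under 0.05. Gpr17, a receptor of cells about to form myelin, stood at -0.25 (adjusted p = 0.0438) and Enpp6, a marker of newly formed oligodendrocytes, at -0.20 (adjusted p = 0.209), each lower in 10 of 12 CIE Drinking arrays, while Cspg4, a marker of precursors, stood at 0.13 (adjusted p = 0.188).

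The promoter windows of 9630013A20Rik and Zbtb7a are shown because they belong to the largest fall and to the largest rise carried by the brightest probeset of a gene. Both are from RefSeq on GRCm38.p6 and run from 250 bases before to 50 after the annotated start. Capitals mark the E-box CAGCTG, a motif of basic helix-loop-helix factors, in 9630013A20Rik (chr14:84476375-84476674, minus strand), and the GC box GGGCGG on either strand, a motif of Sp factors, in Zbtb7a (chr10:81136021-81136320, plus strand), where 2 of the 6 copies overlap.
9630013A20Rik: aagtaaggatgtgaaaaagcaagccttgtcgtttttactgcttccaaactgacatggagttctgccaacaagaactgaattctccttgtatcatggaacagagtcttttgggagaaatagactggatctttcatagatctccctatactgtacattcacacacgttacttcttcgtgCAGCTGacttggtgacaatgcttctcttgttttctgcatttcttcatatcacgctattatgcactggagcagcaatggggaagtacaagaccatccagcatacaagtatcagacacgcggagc
Zbtb7a: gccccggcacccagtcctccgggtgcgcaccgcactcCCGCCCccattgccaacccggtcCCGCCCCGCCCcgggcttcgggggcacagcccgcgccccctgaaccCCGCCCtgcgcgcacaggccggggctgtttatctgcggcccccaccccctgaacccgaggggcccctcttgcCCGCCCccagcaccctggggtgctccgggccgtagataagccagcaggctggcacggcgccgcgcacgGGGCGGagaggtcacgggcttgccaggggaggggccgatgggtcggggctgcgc
The first window held 1 CAGCTG and 0 GC boxes at 42.7% GC, and the second 6 GC boxes at 77.7% GC. Windows were found for 280 of the 338 genes with a raised probeset and 40 of the 47 with a lowered one. The GC box was in 63.5% of the 389 windows of raised genes, 72.3% of the 47 windows of lowered genes and 52.5% of the 17992 windows of all measured genes, and CAGCTG in 13.1%, 21.3% and 16.4%. The median GC content was 62.7% in the windows of raised and of lowered genes and 58.3% in all. These are matches of letters and not sites shown to be bound.

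The other falls were smaller. Cotl1, coactosin-like protein of the actin cytoskeleton, was at 7.70, 7.81 and 8.09 in CIE Drinking mice against 8.06, 8.22 and 8.45 in Air NonDrinking mice (-0.38, SE 0.06, adjusted p = 0.000316), and its other 5 probesets lay between -0.27 and -0.10. Ckap5, which promotes the growth of microtubules, was at 9.84, 10.1 and 10.2 in CIE Drinking mice against 10.2, 10.3 and 10.4 in Air NonDrinking mice (-0.24, SE 0.04, adjusted p = 0.000753), in its brightest probeset. In both genes all 12 CIE Drinking arrays lay below the Air NonDrinking mean, though the ranges overlapped slightly. Kitl, the ligand of the receptor KIT, stood at -0.38 (SE 0.08, adjusted p = 0.00538, or 0.0121 without Air NonDrinking mouse 52), and another Kitl probeset at 0.28 (adjusted p = 0.0618). Calr, the calcium-binding chaperone calreticulin of the endoplasmic reticulum, had 2 of 3 probesets called, at -0.14 and -0.12, and the other one at -0.11 (adjusted p = 0.036). The brightest Calr probeset lost its call with only the 2 groups in the fit (adjusted p = 0.0222) and without Air NonDrinking mouse 51 (adjusted p = 0.0189).

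Other falls that kept their calls whichever array was left out were those of Plekhh2 (-0.29, adjusted p = 0.00188), Mccc2, a subunit of an enzyme of leucine breakdown (-0.29, adjusted p = 0.00038), Tpx2, a spindle protein (-0.28, adjusted p = 0.00135), and Bmpr1a, a receptor for bone morphogenetic proteins (-0.24, adjusted p = 0.00101). Those of the matrix protein gene Aspn, the lipid kinase gene Pi4k2b, the ciliary transport gene Wdr19, and Mpzl1, Sertad2 and Katnbl1 lay between -0.31 and -0.22. Each of these 6 lost its call without 1 array, at an adjusted p of 0.0142 for Katnbl1, without CIE Drinking mouse 6, and of 0.0233 for Aspn, without Air NonDrinking mouse 51. Of all the genes in this paragraph, only Plekhh2 and Sertad2 were called in the brightest probeset. The other probesets of Plekhh2 stood at 0.04 and 0.03. In the remaining genes the brightest probeset lay between -0.11 (Aspn) and 0.08 (Tpx2). The called probesets of Pi4k2b, Tpx2 and Aspn were dim, at mean levels of 3.98, 4.65 and 4.82.

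Most rises were carried by 1 probeset of a gene and not by the brightest one. By the brightest probeset of each gene, 38 of 18058 genes were higher (0.21%) and 22 lower (0.122%), whereas of the 16512 other probesets of these genes 323 were higher (1.96%) and 29 lower (0.176%). Ranked by level within genes of several probesets, the share called higher was 0.269% of the brightest, 1.67% of the next, 2.21% of those at rank 3 and 2.39% of the dimmer ones. Of the 338 genes with a raised probeset 324 had several probesets, and in 300 of these the brightest was not called higher, with a median log2 fold change of -0.02. Their 879 other probesets had a median of -0.01, and 395 of them (44.9%) were positive. In 0 of the 324 genes were all probesets raised, and 22 had more than 1 raised. The most raised probeset lay a median of 2.49 log2 units below the brightest of its gene, which was within 0.1 of no difference in 261 genes. Probes differ in affinity, so a dimmer probeset need not read a rarer transcript.

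Most of the leading genes had this form. Zbtb7a was raised in its brightest probeset, but in only 1 of 3, with the others at 0.06 and -0.04 and not called. Rph3a had 1.09 in 1449961_at and 0.07 in its brighter probeset (adjusted p = 0.788). Apc had 0.98 in 1420957_at, and its other 3 probesets, at mean levels of 12.3, 11.04 and 7.21, stood between -0.06 and 0.00. Nedd4 had 0.84 in 1421955_a_at and -0.08 and -0.16 in its others. The rise was thus in 1 of 2, 1 of 4 and 1 of 3 probesets. Kif1b had 2 of 7 probesets called, at 0.83 and 0.44, and the brightest at -0.04. Atrx had 3 of 7 between 0.65 and 0.84, of which 1 was called, and the brightest at -0.02. Scn1a had 0.88 called, 0.65 not called (adjusted p = 0.0167) and its brightest at 0.07.

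Several probesets were called in a few genes. Fam193a had 3 of 4 raised, by 0.58, 0.44 and 0.36, with the brightest at 0.00. Arid4b, a subunit of a histone deacetylase complex, had 2 of 6 raised, by 0.68 and 0.66, and another one at 0.73 (adjusted p = 0.0114). Sf3b2, a subunit of the spliceosome, had 2 of 7 raised, by 0.63 and 0.30. In 3 genes probesets were called in both directions. Gnai1, an alpha subunit of inhibitory G proteins, had 0.30 in one probeset (adjusted p = 0.00825), -0.17 in another (adjusted p = 0.00902) and its brightest at -0.06. The others were Pnisr, a nuclear protein of the splicing list, raised by 0.48 and 0.33 in 2 probesets and at -0.21 in another (adjusted p = 0.00345), and Kdm6b, a demethylase of histone H3, at 0.19 in its brightest probeset (adjusted p = 0.00682) and -0.25 in its dimmest (adjusted p = 0.00621). Both Kdm6b calls and that of Pnisr at 0.48 were lost without 1 array, at adjusted p = 0.0169 (without Air NonDrinking mouse 51), 0.0172 (without Air NonDrinking mouse 55) and 0.0134 (without Air NonDrinking mouse 51).

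**Figure D3:**
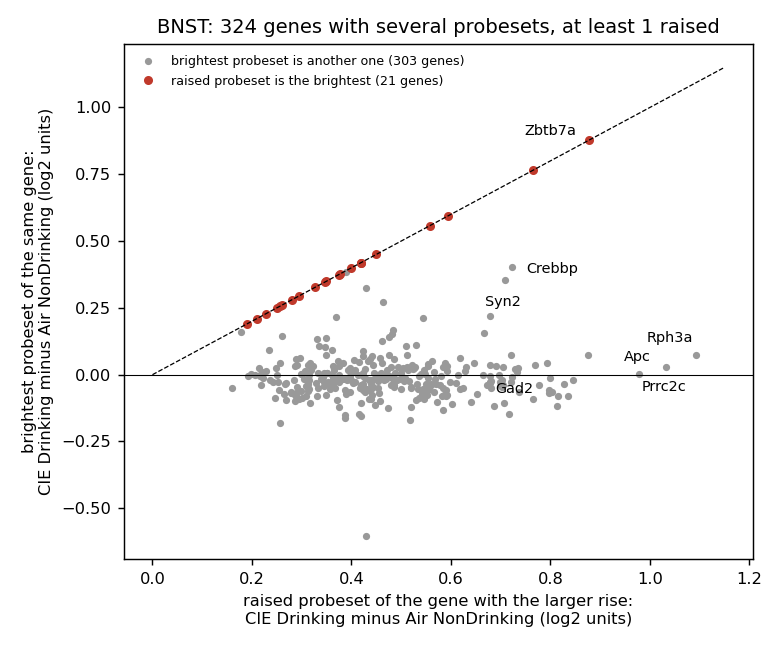
Each point is 1 of 324 genes with several probesets, with CIE Drinking minus Air NonDrinking (log2 units) of its most raised probeset on the x axis and of its brightest probeset on the y axis. In 303 genes the brightest probeset is another one, mostly near 0, and the 21 genes whose most raised probeset is the brightest lie on the dashed line of equal values.

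Gene lists of chromatin and RNA regulators were read by the brightest probeset of each gene and then by all probesets, beside 1.09% of all probesets called higher. Among probesets other than the brightest of a gene that share was 1.96%. The lists were drawn up with earlier results of these data known, so the shares are descriptions only. Of 24 chromatin remodellers 0 were called by the brightest probeset, with a median of -0.01, while 8 of 60 probesets were higher (13.3%), in Bptf, Chd6, Chd4, Smarcc1, Smarca2, Chd2 and Smarca4, by 0.36 to 0.80. The brightest probesets of these 7 genes lay between -0.05 and 0.04. Of 30 splicing factors 0 were called by the brightest, while 7 of 130 probesets were higher and 1 lower, in Srrm1, Pnisr, Luc7l2, Luc7l3 and Rbm25. For histone and DNA methylation 2 of 24 genes were called by the brightest, Kdm6b and Tet1, an enzyme that oxidizes methylated cytosine (0.35, adjusted p = 0.00798, or 0.0192 without Air NonDrinking mouse 49), and 5 of 79 probesets were higher and 1 lower, the others in Ezh1 and Kdm5a. The acetyltransferase gene Crebbp had a probeset raised by 0.72 and its brightest at 0.40 (adjusted p = 0.0234).

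In other lists the calls were likewise set beside 1.09% of all probesets called higher, and 1.96% of those not the brightest of a gene. Ubiquitin ligases had 3 of 64 probesets higher, in Nedd4, Herc1 and Herc2, by 0.72 to 0.84, and motors and cytoskeleton 4 of 78, in Kif1b, Ank2 and Map2, by 0.36 to 0.83, with 0 genes of either list called by the brightest probeset. Synaptic vesicle release had 3 of 46 higher, in Rph3a and Syn2, and neurotrophins and receptors 2 of 41, in Ntrk3 and Ntrk2. The brightest probesets of Ntrk3 and Ntrk2 stood at -0.12 and -0.01. Postsynaptic scaffolds, voltage-gated calcium channels, ethanol-sensitive potassium channels and ionotropic glutamate receptors had 0 of 127 probesets called in either direction by LIMMA, 14 of them at an unadjusted p under 0.05. By RefSeq, genes with a raised probeset spanned a median of 63.6 kb on the genome, those with a lowered probeset 42.4 kb and all measured genes 20.4 kb. Several probesets were present in 324 of 338, 42 of 47 and 8916 of 18058 of these genes, and the spans were not matched for this.

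Long noncoding RNAs that stay in the nucleus were uneven. Malat1 had 4 of 7 probesets at 0.60 to 0.73 and the others at -0.09 to 0.15, and 0 were called (smallest adjusted p = 0.0226). Kcnq1ot1, made from the paternal chromosome at an imprinted locus, had 1 of 6 raised, by 0.70, and Mirg, a host of microRNAs, 1 of 2 by 0.19 (adjusted p = 0.00673 each). Meg3 had 0 of 11 called, with values of -0.18 to 0.11. Airn, the antisense RNA of the imprinted Igf2r locus, had 1 of 5 raised, by 0.35, with its brightest at 0.14 (adjusted p = 0.546).

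In 7 lists of genes often studied in this region for stress and ethanol, LIMMA called 0 of 193 probesets, against 1.22% of all probesets. These held 16 genes of CRF and stress peptides, 8 of the opioid and nociceptin system, 11 GABA-A receptor subunits, 15 ionotropic glutamate receptor subunits, 18 immediate early genes, 13 glucocorticoid-responsive genes and 16 clock genes, and by the brightest probeset 0, 1, 1, 0, 3, 0 and 4 of them had an unadjusted p under 0.05, or 9 of 96 distinct genes (9.38%) against 10.8% of all genes. Crh, the stress peptide CRF, was at 7.46, 9.37 and 10.3 in CIE Drinking mice against 7.89, 9.94 and 10.5 in Air NonDrinking mice (-0.39, adjusted p = 0.628). Its spread between mice was wide in both groups. Respiratory complex I had 0 of 67 probesets called, with 11 of 30 genes at an unadjusted p under 0.05 and a median of 0.03. The cannabinoid receptor gene Cnr1 had a dim probeset raised by 0.34 (adjusted p = 0.000113) and its brightest at 0.11 (adjusted p = 0.515).

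In the 13 lists of cell type markers 2 of 271 probesets were called (0.738%, against 1.22% of all probesets), those of Gjc3 and of Gad2, an enzyme of GABA synthesis, in which 1421978_at rose by 0.69 without overlap (adjusted p = 0.00481) and the brighter probeset stood at 0.03 (adjusted p = 0.851). List medians lay between -0.07 and 0.03, except for striatal projection neurons at -0.26. Astrocyte markers averaged 10.97 to 11.3 in CIE Drinking and 11.1 to 11.4 in Air NonDrinking arrays, and choroid plexus markers 5.70 to 5.94 in CIE Drinking and 5.62 to 6.11 in Air NonDrinking arrays. With the level of the striatal list as a covariate 755 probesets were called, 516 of them among the 543.

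The same probesets were read in mice with only vapor or only drinking. They had been chosen for a difference between CIE Drinking and Air NonDrinking mice, which favours larger values in that comparison than in others. Against Air NonDrinking mice, which serve all 3 comparisons, the raised probesets had a median log2 fold change of 0.43 in CIE Drinking, 0.10 in CIE NonDrinking and 0.09 in Air Drinking mice, and LIMMA called 0 of 44429 probesets in either of the last 2 comparisons, where an unadjusted p under 0.05 was reached by 3946 probesets in CIE NonDrinking and 4595 in Air Drinking mice. CIE Drinking mice set against Air Drinking mice gave 354 probesets higher (0.797%) and 65 lower (0.146%), and against CIE NonDrinking mice 170 higher (0.383%) and 8 lower (0.018%), with the same CIE Drinking arrays. These counts depended strongly on the fit. The 419 calls against Air Drinking mice became 48 with only the 2 groups in the fit and 5029 with array quality weights, and the 178 against CIE NonDrinking mice became 305 and 440. Against Air NonDrinking mice, Zbtb7a stood at 0.88 in CIE Drinking, 0.11 in CIE NonDrinking and -0.01 in Air Drinking mice, and Prrc2c at 1.03, 0.32 and 0.27. The Air Drinking values join sets of mice that differed. Zbtb7a was at 7.13 to 8.06 in Air Drinking mice numbered 23 to 32 and at 6.61 to 7.03 in those numbered 57 to 61. In Air NonDrinking mice it was at 7.08 to 7.53. The mean of the raised probesets differed between the same sets, as given below. Probeset 1444071_at of 9630013A20Rik was at -1.04 in CIE Drinking, -0.80 in CIE NonDrinking and 0.08 in Air Drinking mice. LIMMA gave an adjusted p of 0.443 and 0.917 for the last 2 values, which were not called.

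The numbers that identify mice ran from 1 to 21 in CIE Drinking, 34 to 44 in CIE NonDrinking and 47 to 56 in Air NonDrinking mice. The mean of the raised probesets was 7.20, 7.47 and 7.56 in CIE Drinking mice against 6.88, 6.98 and 7.10 in Air NonDrinking mice, which describes probesets chosen for this. In Air Drinking mice it was 6.99 to 7.49 in 7 mice numbered 23 to 32 and 6.77 to 6.84 in 5 numbered 57 to 61, without overlap. Mouse number and group cannot be told apart in CIE Drinking and Air NonDrinking mice, and hybridization batches are not in the labels.

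**Figure D4:**
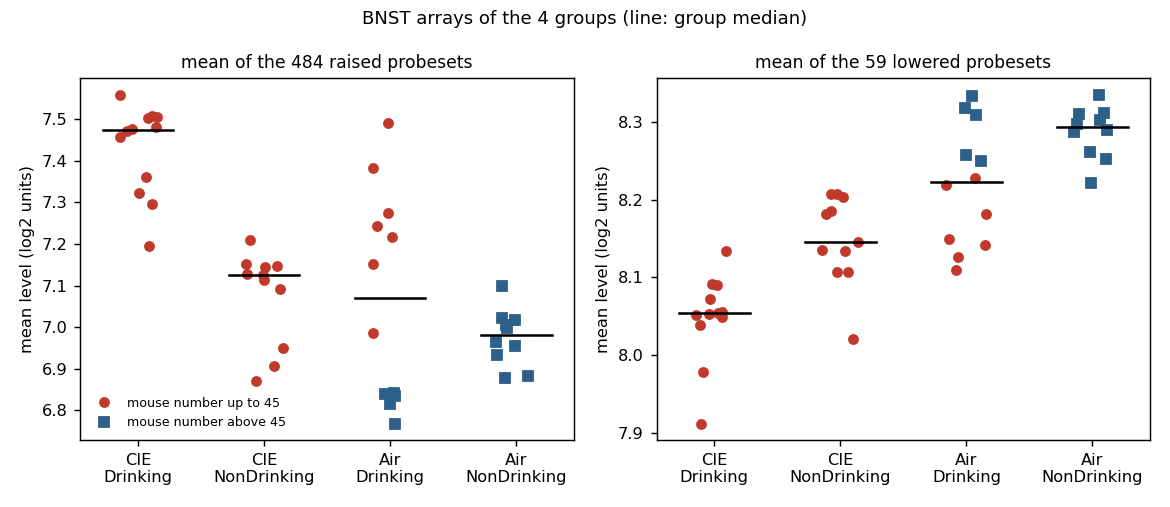
Mean level (log2 units) of the 484 raised and of the 59 lowered probesets, each point 1 BNST array, with circles for mouse numbers up to 45, squares for later ones and a line at the group median. CIE Drinking arrays lie at 7.20 to 7.56 for the raised probesets, Air NonDrinking arrays at 6.88 to 7.10, and the 5 late-numbered Air Drinking arrays at 6.77 to 6.84.

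Of the other regions, the prefrontal cortex (PFC) differed from BNST in this comparison. The raised probesets had a median difference between CIE Drinking and Air NonDrinking mice of 0.43 in BNST, 0.39 in nucleus accumbens (NAC), 0.44 in hippocampus (HPC), 0.43 in central amygdala (CeA) and 0.07 in PFC. These probesets were chosen for their rise in BNST, which favours a larger value in BNST than in another region. Within each region the same comparison called 1216 probesets in NAC (2.74%), 1614 in HPC (3.64%), 817 in CeA (1.86%) and 324 in PFC (0.729%). A test of the BNST difference minus that of another region called 260 of 44429 probesets for PFC (0.585%), 169 higher in BNST (0.38%) and 91 lower (0.205%), and 0 for NAC, 0 for HPC and 1 of 43921 for CeA (0.00228%). For NAC 2702 of 44429 and for HPC 2699 of 44287 had an unadjusted p under 0.05 in this LIMMA test. A test that is not passed does not show that regions respond alike, and 50 mice gave arrays in several regions. Atrx differed from PFC by 1.08 (SE 0.24, adjusted p = 0.00325), at 0.84 in BNST and -0.24 in PFC, and Apc by 1.11 (SE 0.26, adjusted p = 0.00681). Ugcg, which makes the base unit of glycosphingolipids, differed by 0.91 (SE 0.11, adjusted p = 1.19e-10), at 0.59 in BNST and -0.32 in PFC. These 3 had opposite signs in the regions, but within PFC LIMMA called neither Atrx (adjusted p = 0.214) nor Apc (adjusted p = 0.578). For 9630013A20Rik, the dimmest probeset 1439785_at differed by -0.91 (SE 0.21, adjusted p = 0.00724), at -0.92 in BNST and -0.01 in PFC. Its brightest probeset, 1444071_at, stood at -0.48 in PFC and was called lower there too (LIMMA within PFC, adjusted p = 0.00763). The difference of 1444071_at between BNST and PFC, -0.56, was not called (adjusted p = 0.215). The probeset that differed from CeA was of Spag17, a protein of cilia, at -0.12 in BNST and 0.68 in CeA (adjusted p = 0.00416). Ugcg and Spag17 were named after their values were seen, as were Gnai1, Gad2, Malat1, Airn and the list members not called by their brightest probeset.

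**Figure D5:**
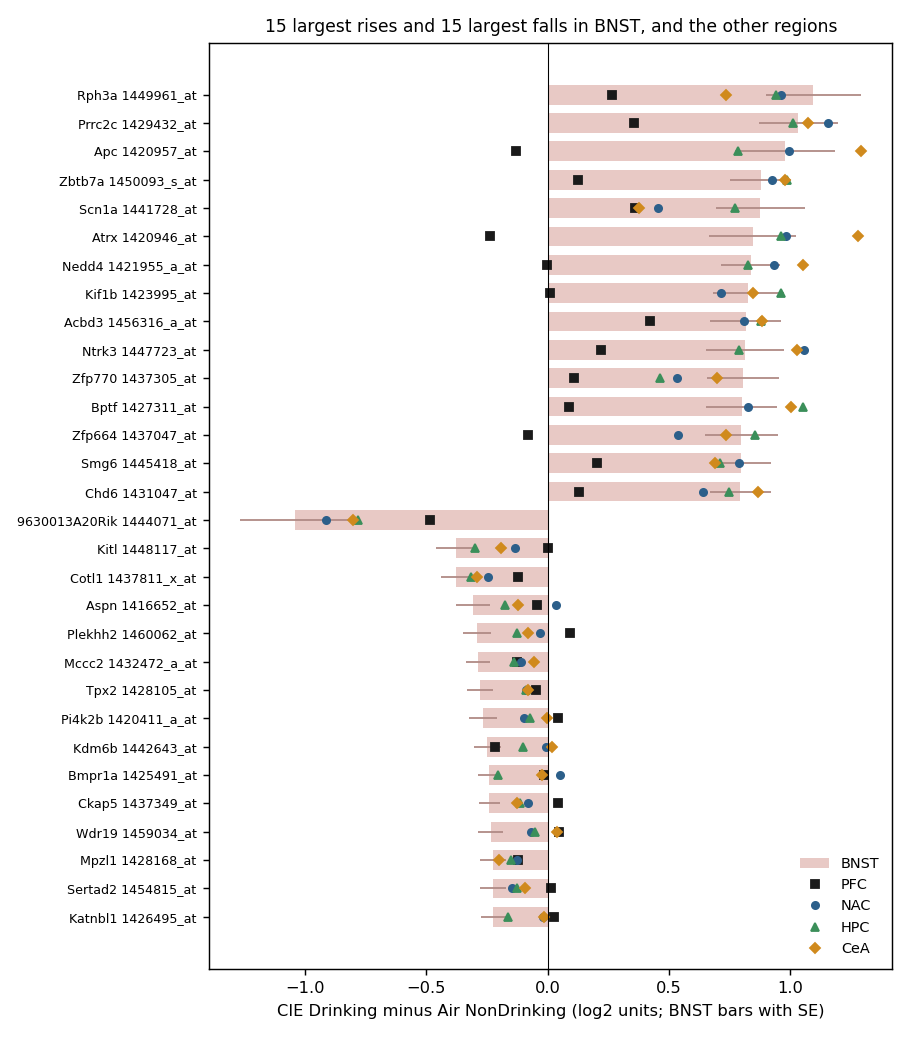
CIE Drinking minus Air NonDrinking (log2 units) for the 15 genes with the largest rises and the 15 with the largest falls in BNST, with bars and SE for BNST and symbols for the other regions. Among the rises PFC symbols lie nearest 0 or below it, with Atrx at -0.24 and Apc at -0.13.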

How the data were processed

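RNA from 5 brain regions had been hybridized to Affymetrix Mouse Genome 430 arrays, 1 per mouse and region. The deposited values are log2 intensities that the authors made with RMA, quantile normalization within each region and ComBat over hybridization batches, after removing arrays of low quality. The batches were not used here, since the labels do not give them, and removing batch effects before a test can make p-values too small. Of 45037 probesets 608 had no BNST values and 44429 were tested. Probesets carry 1 symbol in 34945 cases by the platform annotation. LIMMA (limma 3.58.1, R 4.3.3) was fitted to all 45 BNST arrays in 4 groups, with Benjamini-Hochberg adjustment over all probesets and calls at an adjusted p of 0.01 or less, and checked on simulated data. A gene was represented by its probeset of highest mean over the BNST arrays. Regions were compared in a fit of all 5 regions. The principal component scores were tested with 100000 permutations. Named genes were the 15 with the largest rise and the 15 with the largest fall among called probesets with 1 symbol, list members called by the brightest probeset, and the 5 with most called probesets. The members and the 46 gene lists (681 genes measured) were chosen with earlier results of these data known. Mouse numbers do not repeat between groups, so arrays are paired only across regions. The number of arrays limits the precision.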

Additional observations from a re-analysis of the deposited data

Results flagged for a closer look

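Of the 39 named probesets, 10 differed between BNST and PFC in the response of CIE Drinking against Air NonDrinking mice, by the test of the difference itself over the arrays of all regions. The same test called 260 of all 44429 probesets (0.585%), and 88 of the 543 called in BNST. The named probesets were chosen mainly for large differences in BNST, which favours a call in this test. BNST minus PFC was 1.11 for Apc, 1.08 for Atrx, 0.94 for Gjc3, 0.88 for Zfp664, 0.84 for Nedd4, 0.82 for Kif1b, 0.70 for Zfp770, 0.64 for Pnisr (1429537_at), 0.41 for the brightest probeset of Kdm6b and -0.28 for Ckap5, on the log2 scale. A single array lay far from the rest of its group. For Katnbl1, Air NonDrinking mouse 52 was at 7.67 in a group with a median of 7.88, and it was the 1 case in 39 probesets looked at, where chance gives about 1 in 20. The 12 CIE Drinking arrays were not looked at in this way.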

How the results depend on the processing

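The counts of called probesets moved with the fit. Of the 543 called probesets 0 reversed sign in any alternative, but they were chosen as called and the alternatives reuse nearly the same arrays. A reversal was therefore unlikely from the start. Against 543 called (484 higher and 59 lower in CIE Drinking mice), only the 2 groups in the fit gave 901 (791 and 110), array quality weights 1346 (1065 and 281), leaving out dim probesets 323 (270 and 53), and an adjusted p of 0.05 gave 1305 (1013 and 292). Trend and robust variances gave 541 and a repeated quantile normalization 562. After seeing the data, the fit was also made without CIE Drinking mouse 14 and Air NonDrinking mouse 55, with 285 called (264 and 21), and with the striatal list as a covariate, with 755 (635 and 120). Leaving out 1 array in turn gave 342 (without Air NonDrinking mouse 51) to 674 (without CIE Drinking mouse 3) called, 316 to 601 higher and 26 to 73 lower. The count fell by over 1.5 times without Air NonDrinking mouse 49 (346) or 51, and the count of lower probesets also without CIE Drinking mouse 17 or 21 or Air NonDrinking mouse 47, 48, 53, 54, 55 or 56. The higher share was 79.1% with array weights and 93.5% without CIE Drinking mouse 1. Of the 39 named probesets 15 lost the call without some 1 array, 15 without mice 14 and 55, 2 with only the 2 groups, and 1 each with repeated quantile normalization, with trend and robust variances, and with the striatal covariate. With the mouse as a block across regions, the calls of BNST minus PFC went to 298, against 260, with 0 for NAC, 0 for HPC and 1 for CeA, and the block changed no other call count. Without dim probesets they were 186 for PFC and 0 for CeA. Within BNST no paired analysis was possible because mouse numbers do not repeat between groups. CIE Drinking against Air Drinking gave 419 calls, 48 with only the 2 groups and 5029 with array weights, and CIE Drinking against CIE NonDrinking 178, 305 and 440. The median of the chromatin remodelling list was 0.056 when each gene's probesets were averaged, against -0.01, that of histone and DNA methylation 0.041, against -0.01, and that of motors and cytoskeleton 0.031, against -0.02. With an unadjusted p under 0.05 for a raised probeset, 41.0% of other probesets were positive, against 44.9%. The principal component difference was -7.83 without dim probesets (permutation p = 0.265). The cause of these shifts was not tested.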

Other observations

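Beyond the named genes, 10 of 1647 probesets of annotated long noncoding RNAs were higher in CIE Drinking mice (0.607%, against 1.09% of all probesets) and 3 lower (0.182%, against 0.133%), these 3 all of 9630013A20Rik. The raised ones included 9330159M07Rik (0.56), E130307A14Rik (0.55) and 4632427E13Rik (0.53). By level over the BNST arrays, the share of probesets called higher was 0.558% in the dimmest of 4 bins of equal size, 1.49% and 1.61% in the middle bins and 0.702% in the brightest, and the share called lower 0.072%, 0.081%, 0.153% and 0.225%.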
